A study of Mus musculus with 3 samples.

Results

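Transcription factors that direct myeloid blood formation were followed across the cell types of mouse bone marrow carrying an EP300-ZNF384 fusion. The set was named by gene symbol and holds 8 of the 32285 genes in the files: the C/EBP family members Cebpa, Cebpb, Cebpd and Cebpe, the ETS factor Spi1 (PU.1), the zinc finger repressor Gfi1, the interferon regulatory factor Irf8 and the RUNX factor Runx1. All 8 were found in each of the 3 libraries, 2 of them with the genotype Ep300-Znf384-V5-HA (the fusion, carrying V5 and HA tags) and 1 wild type. Every library came from a male aged 6 weeks. Femur and tibia marrow was depleted of red cells by lysis, and 5000 sorted live cells were pooled with 5000 sorted live cells lacking lineage markers before droplet 3′ sequencing, so shares of cell types reflect that pooling and not whole marrow. The labels do not say how the fusion allele is driven or whether the libraries are from separate litters, and p-values measure only the spread between these libraries.

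As background, PU.1 and C/EBPα act together in early progenitors to open the myeloid programme. Granulocytes then pass through a succession of C/EBP factors, with C/EBPε required for the secondary granules of neutrophils, while IRF8 favours monocytes and dendritic cells and GFI1 favours granulocytes. RUNX1 acts earlier, in stem cells and the first lineage choices, and again in megakaryocytes and lymphocytes.

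In GENCODE M21 on GRCm38, Cebpa lies at chr7:35119293-35121928, Cebpb at chr2:167688915-167690418, Cebpd at chr16:15887286-15891031, Cebpe at chr14:54710360-54712174, Spi1 at chr2:91082390-91115756, Gfi1 at chr5:107716657-107726036, Irf8 at chr8:120736358-120756694 and Runx1 at chr16:92601466-92826149. Cebpb overlaps Tmem189 and Cebpd overlaps Spidr on the opposite strand. The sources used here do not give whether counting used strand. Without it, reads of these pairs cannot be told apart.

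The libraries held 97192347 and 111836603 UMIs (unique molecules counted) in the fusion and 93262028 in wild type. After filtering, 7313, 6895 and 7431 cells were kept. Between 9 and 17 kept cell barcodes were shared by any pair of libraries. Over all cells, Ep300 was lower in the fusion libraries by the edgeR quasi-likelihood test (log2 fold change -0.49, adjusted p = 0.0476) and Zfp384, the mouse symbol of ZNF384, was higher (0.57, adjusted p = 0.03). Cells were grouped into 13 classes by marker genes, with the 8 factors left out of the clustering. At the clustering resolution of 1 used throughout, no separate class of conventional dendritic cells, macrophages, eosinophils or plasma cells formed. At a resolution of 2, a cluster of 115, 129 and 234 cells scored highest for conventional dendritic cell markers. However, 0 of its leading 10 genes were such markers. Its leading genes Upb1, Cd7, Ccnd1 and Cd300c also led the plasmacytoid cluster at a resolution of 1, so its name is uncertain. The plasmacytoid class then held 24, 39 and 88 cells in place of 96, 102 and 209.

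The factors divided the marrow between them. Levels are given as CPM (counts scaled to a fixed total of UMIs in the class), in the order fusion replicate 1, fusion replicate 2 and wild type unless stated, and were set beside each other within a gene only. Cebpa, the founding factor of granulocyte-monocyte identity, was highest in basophils and mast cells, at 333, 285 and 288 CPM. Granulocyte-monocyte progenitors followed at 80.9, 60.5 and 62.5 CPM, a range that overlapped the monocytes next in order. Cebpe peaked in immature neutrophils at 858, 712 and 626 CPM. Its level in mature neutrophils was 244, 179 and 110 CPM, and in granulocyte-monocyte progenitors 121, 105 and 77.8 CPM.

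Cebpb, a C/EBP factor of mature and activated myeloid cells, was highest in monocytes (570, 491 and 508 CPM) and next in mature neutrophils (426, 293 and 308 CPM). Cebpd, the C/EBP factor linked to acute-phase responses, was highest in mature neutrophils (383, 315 and 399 CPM) and next in immature neutrophils (334, 243 and 259 CPM). In both genes the fusion libraries lay on either side of wild type in at least 1 of these classes. Spi1 was present in all the myeloid classes, with its highest level in mature neutrophils (705, 739 and 659 CPM) and 434, 479 and 426 CPM in monocytes. Its level was 8.77, 9.12 and 9.59 CPM in erythroid progenitors.

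Irf8 had the steepest profile of the set. Plasmacytoid dendritic cells held 3008, 2889 and 2779.7 CPM, above every other class in every library. Granulocyte-monocyte progenitors (516, 488 and 510 CPM) and monocytes (499, 451 and 527 CPM) came next and overlapped. Stem, multipotent and lymphoid progenitors (403, 326 and 523 CPM) and pre-B to mature B cells (523, 482 and 322 CPM) overlapped that range as well. Gfi1 reached at most 33.2 CPM in any class and library, with 25.5, 25.6 and 33.2 CPM in granulocyte-monocyte progenitors and 24.4, 23.2 and 26.3 CPM in immature neutrophils. A single progenitor cluster held more, as given below. Runx1 was highest in basophils and mast cells (650, 626 and 699 CPM), followed by megakaryocytes (301, 272 and 261 CPM), whose range overlapped that of stem, multipotent and lymphoid progenitors (284, 278 and 240 CPM).

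**Figure D1:**
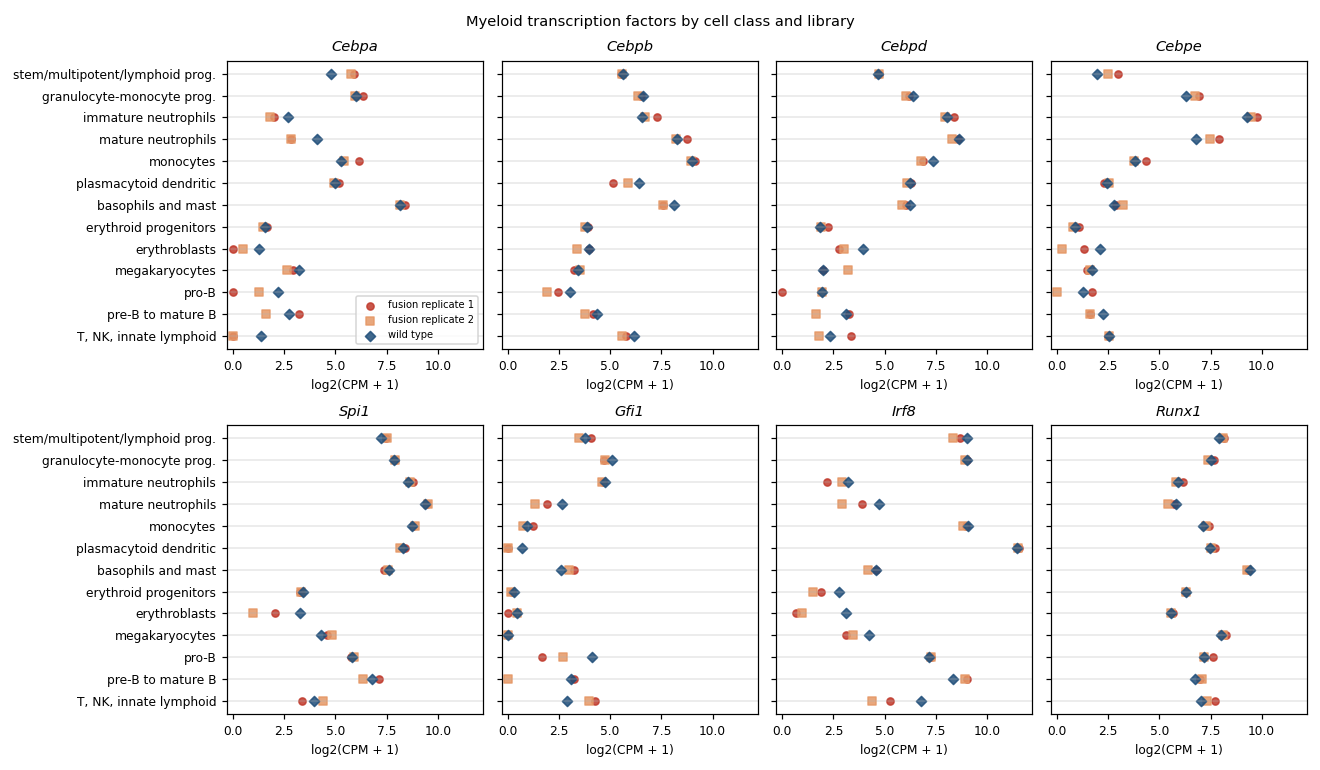
Level of each factor in each cell class and library, as log2(CPM + 1), with one point per library. Irf8 is highest in plasmacytoid dendritic cells and Cebpa in basophils and mast cells, while the 3 points of Spi1 lie close together in the myeloid classes.

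The genes whose levels followed the factors most closely were listed over 39 class-by-library sums, as Pearson's r of log2(CPM + 1). These points share libraries and cell composition, so r is a description. Ctsg, a granule protease, was nearest to Cebpa (r = 0.894), Fosl2 to Cebpb (0.911), Igsf6 to Cebpd (0.93) and Trem3 to Cebpe (0.937), with the granule peptide gene Camp next to Cebpe (0.916). Ly86 was nearest to Irf8 (0.962), Tbc1d4 to Runx1 (0.886) and Xpc to Gfi1 (0.727).

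Within granulocyte-monocyte progenitors the levels of the factors differed between the 3 clusters. Cluster 23, with 70, 89 and 100 cells, held 641, 506 and 436 CPM of Cebpe and 85.2, 56.7 and 111 CPM of Gfi1, against 2.56, 2.80 and 2.02 CPM of Irf8. Cluster 7 held 667, 622 and 600 CPM of Irf8 and 12.4, 17.2 and 21.4 CPM of Gfi1. Cluster 6, with 309, 322 and 576 cells, held all of them, at 492, 426 and 496 CPM of Irf8, 87.5, 87.2 and 71.4 CPM of Cebpe and 24.2, 29.4 and 33.2 CPM of Gfi1. After each cell was thinned to 2000 UMIs, cells with an Irf8 UMI held a Cebpe UMI in 3.97%, 3.07% and 1.12% of cases, and cells without one in 28.0%, 24.5% and 18.1%. At this depth an Irf8 UMI and a Cebpe UMI were seldom found in the same progenitor in any of the 3 libraries. Before thinning, 82.2%, 80.1% and 83.3% of cluster 6 cells held an Irf8 UMI and 41.4%, 40.1% and 31.8% a Cebpe UMI.

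Along the neutrophil stages the make-up of the C/EBP UMIs changed in every library. The 4 stages were the neutrophil clusters led by Fcnb, Ltf, Retnlg and Il1b. Cebpe made up 63.6%, 67.5% and 64.5% of the UMIs of the 4 C/EBP genes in the Fcnb stage and 9.59%, 7.87% and 3.24% in the Il1b stage. Cebpb moved the other way between the same stages, from 13.3%, 11.2% and 10.9% to 56.5%, 50.6% and 46.4%. Its level did not rise at each step, at 197, 133 and 126 CPM in the Fcnb stage and 101, 70.1 and 57.0 CPM in the Ltf stage. Cebpd was also abundant in the Il1b stage, with 955, 840 and 1175 UMIs beside 1613, 1035 and 1118 of Cebpb. Wild type thus held more Cebpd than Cebpb there. Cebpa was below 1% of the C/EBP UMIs in the Fcnb stage. Its level was 4.56, 2.58 and 6.14 CPM there and 7.15, 4.59 and 18.3 CPM in the Il1b stage.

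**Figure D2:**
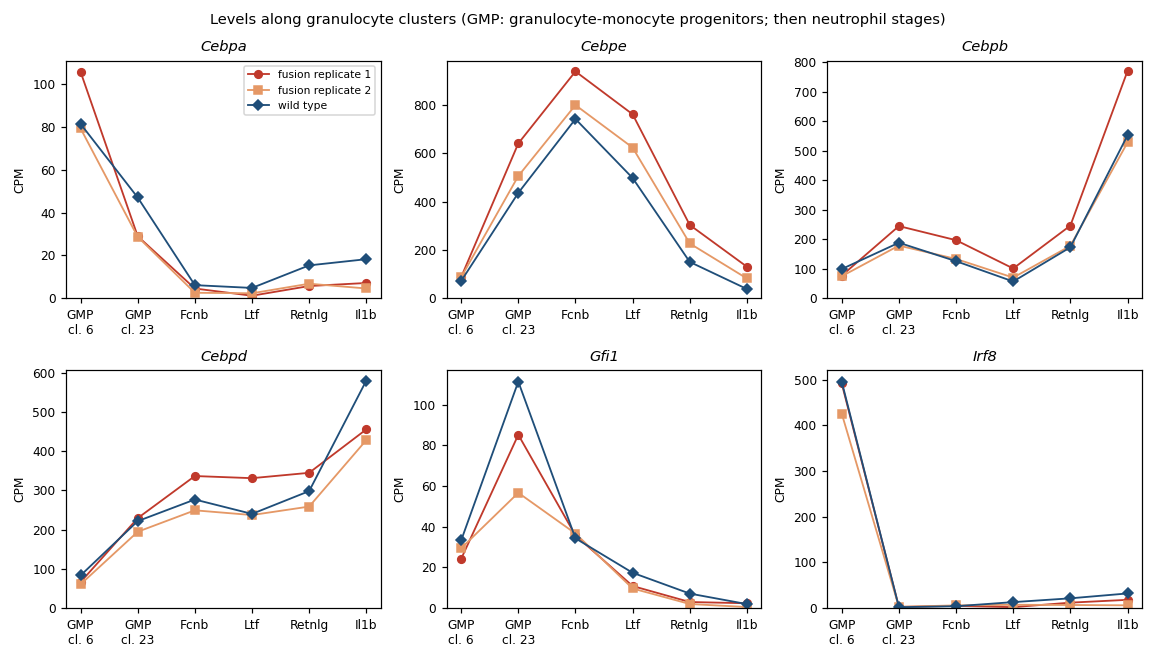
Level (CPM, linear axes from 0) of 6 factors in 2 granulocyte-monocyte progenitor clusters and the 4 neutrophil stages, with one line per library. On these plain class totals, Cebpe stays above wild type in both fusion libraries from cluster 23 to the Il1b stage, and Cebpa stays below it over the same clusters. On scaled library sizes, Cebpe in the Fcnb stage differed from wild type by a log2 fold change of only 0.048 (fusion replicate 1) and 0.037 (fusion replicate 2).

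The fusion libraries were compared with wild type class by class, on UMIs summed per library, by the edgeR quasi-likelihood test with Benjamini-Hochberg adjustment over all genes of the class. The spread was therefore estimated from the pair of fusion libraries (1 residual degree of freedom), and the single wild-type library was taken to have the same spread. Of 104 factor-by-class pairs, 83 passed the filter on low counts and were tested. Of these, 1 pair was called higher and 4 were called lower at an adjusted p under 0.05, and 21 had an unadjusted p under 0.05. DESeq2 called 0 of these pairs, with 9 at an unadjusted p under 0.05. Since each library contributes to every class, results in different classes are not independent. Counting both directions, the share of all genes called was 2.44% in stem, multipotent and lymphoid progenitors, 0.438% in granulocyte-monocyte progenitors, 4.29% in immature neutrophils, 3.7% in mature neutrophils, 1.17% in monocytes, 0.715% in plasmacytoid dendritic cells and 9.3% in basophils and mast cells.

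Cebpa was lower in fusion mature neutrophils, at 6.22 and 6.07 CPM against 16.4 CPM. Both fusion libraries lay under wild type, at -1.54 ± 0.27 on the log2 scale (SE, n = 2 against 1; edgeR adjusted p = 0.0198). In this class 2.2% of all genes tested were called lower. After thinning to 2000 UMIs, 1.07%, 1.14% and 3.14% of the cells held a Cebpa UMI (1.698%, 2.17% and 5.43% before thinning). In erythroblasts, which should lack Cebpa, 0 of 124, 0 of 183 and 0 of 105 thinned cells held one. Before thinning the shares were 0%, 1.02% and 2.54%, with wild type highest there too. The zeros after thinning allow shares of up to 2.42%, 1.64% and 2.86%. Median depths were 24552, 25999 and 24232.5 UMIs per erythroblast against 2398, 3151.5 and 2977 per mature neutrophil. In the same cells, 8 of 10 granulocyte-monocyte progenitor markers were lower in both fusion libraries (summed level 607, 399 and 791 CPM). So were 10 of 10 basophil and mast cell markers (626, 607 and 735 CPM), 13 of 14 T, NK and innate lymphoid markers (24.5, 12.1 and 50.6 CPM) and 11 of 12 pre-B to mature B markers (354, 294 and 415 CPM). The part of these markers in the Cebpa result was not tested.

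Cebpa in immature neutrophils was 3.03, 2.46 and 5.53 CPM and did not pass (edgeR adjusted p = 0.0901). This low level rested on 22, 19 and 41 UMIs in 893, 795 and 802 cells, and 3, 4 and 8 thinned cells held one. In granulocyte-monocyte progenitors, where Cebpa is in full use, the log2 fold change was 0.13 ± 0.16 (adjusted p = 0.962). The genotype effect differed between these classes: it was lower in immature neutrophils than in granulocyte-monocyte progenitors by -1.30 ± 0.35 on the log2 scale (edgeR interaction, adjusted p = 0.00724). In that test 4.59% of all genes were called. The part of free RNA from other cells in the Cebpa difference was not tested. The effects in monocytes and granulocyte-monocyte progenitors differed for 0 of the 8 factors, beside 1.8% of all genes.

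Cebpe, the late granulocyte factor, went the other way in the last neutrophil stage. Il1b neutrophils held 131, 82.1 and 38.5 CPM, both fusion libraries above wild type, with a log2 fold change of 1.34 ± 0.27 (edgeR adjusted p = 0.00875). In this stage 2.39% of all genes were called higher. DESeq2 did not call it (adjusted p = 0.103). The earlier stages did not pass, with log2 fold changes of 0.04, 0.36 and 0.66 in Fcnb, Ltf and Retnlg neutrophils. Granulocyte-monocyte progenitors, before these stages, held 121, 105 and 77.8 CPM, also above wild type in both fusion libraries, and did not pass. Over all mature neutrophils the value was 0.81 ± 0.19 (edgeR adjusted p = 0.0688). The effect was larger in mature than in immature neutrophils by 0.64 ± 0.13 (edgeR interaction, adjusted p = 0.00784), where 1.36% of all genes were called; with DESeq2 size factors the adjusted p was 0.128.

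At 2000 UMIs per cell, 19.0%, 14.5% and 6.78% of Il1b neutrophils held a Cebpe UMI (20.1%, 16.4% and 8.63% before thinning). Erythroblasts, which should lack it, held one in 1.61%, 0% and 0.952% (2.92%, 0.508% and 4.24% before thinning). Thinning left out 683, 240 and 350 Il1b neutrophils that were shallower. Markers of immature neutrophils were also higher in fusion mature neutrophils, at a summed 49763, 42620 and 34148 CPM, with 6 of 10 above wild type in both libraries. Their part in the Cebpe result was not tested.

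Of 10 late granule genes known as C/EBPε targets, 1 rose and 0 fell in mature neutrophils, and the same counts held in immature neutrophils. Of all genes, 149 of 9885 were called higher in mature and 163 of 10227 in immature neutrophils. The riser in both was Mmp8, the neutrophil collagenase, which in mature neutrophils stood at 9716, 12596 and 3772 CPM on scaled library sizes (1.56 ± 0.25 on the log2 scale, edgeR adjusted p = 0.0129). The median log2 fold change of the 10 was 0.16, and of all genes 0.01. Of 10 early granulocyte genes known as C/EBP targets, 0 rose and 2 fell in mature neutrophils: Mpo (myeloperoxidase) by -1.77 ± 0.24 (adjusted p = 0.00617) and Prtn3 (proteinase 3) by -1.60 ± 0.29 (adjusted p = 0.0244). In immature neutrophils 4 of the 10 fell, again with Mpo furthest at -2.49 ± 0.18 (edgeR adjusted p = 9.2e-12). Of all genes, 217 of 9885 were called lower in mature and 276 of 10227 in immature neutrophils. Falls in this list were not particular to neutrophils. Of its genes tested, 3 of 7 fell in plasmacytoid dendritic cells, 3 of 9 in basophils and mast cells and 3 of 10 in erythroid progenitors. Beside these, 39 of 8393, 662 of 10205 and 130 of 13249 of all genes were called lower. In erythroblasts 3 of 7 fell, in pre-B to mature B cells 3 of 6 and in pro-B cells 2 of 5. Beside these, 48 of 9150, 62 of 6796 and 19 of 7624 of all genes were called lower. The list had 0 rising in any of these classes. The median log2 fold change was -2.57 in erythroblasts and -1.03 in mature neutrophils.

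In plasmacytoid dendritic cells 6 of the 10 late granule genes rose, among them Ltf (lactoferrin) at 3.82 ± 0.35 on the log2 scale (edgeR adjusted p = 1.2e-23). There 21 of 8393 of all genes were called higher. In basophils and mast cells 5 of the same 10 rose and 0 fell (median log2 fold change 0.65), and in erythroblasts 4 fell and 0 rose (-2.13). Of all genes, 287 of 10205 were called higher in basophils and mast cells and 48 of 9150 lower in erythroblasts. In plasmacytoid dendritic cells Cebpe itself was at 3.9994, 4.83 and 4.51 CPM and was not tested after the low-count filter. Markers of immature neutrophils as a whole moved with the late granule genes in plasmacytoid dendritic cells (summed 1088, 1537 and 296 CPM). The part of these markers in the rise was not tested.

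Cebpa was higher in the class of stem, multipotent and lymphoid progenitors, at 59.9, 53.1 and 26.3 CPM. Both fusion libraries lay above wild type (1.09 ± 0.18 on the log2 scale, edgeR adjusted p = 0.00348), where 0.568% of all genes were called higher. The class also differed in make-up. All 10 lymphoid progenitor markers were lower in both fusion libraries (summed 1234, 1124 and 2508 CPM). At a finer resolution of 2, a cluster of early progenitors (cluster 13; 244, 251 and 188 cells) held 73.9, 60.0 and 48.8 CPM of Cebpa, and its log2 fold change was 0.45 ± 0.20 (edgeR adjusted p = 0.804). A lymphoid cluster with little Cebpa (cluster 30) held 37, 45 and 228 cells. Fewer lymphoid cells and more Cebpa per cell therefore cannot be told apart in the joined class.

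In that joined class, 2 of 10 early granulocyte genes rose, Ctsg by 1.60 ± 0.21 (edgeR adjusted p = 0.000521) and Slpi by 0.96 ± 0.18 (adjusted p = 0.00772). Of 13 genes linked to IRF8 in monocytes and dendritic cells, 11 were tested, 6 fell and 0 rose. Klf4, a monocyte factor, was at -2.07 ± 0.29 (edgeR adjusted p = 0.000855). Of all genes in the class, 63 of 11082 were called higher and 207 lower. Irf8 itself was 403, 326 and 523 CPM and did not pass (-0.53 ± 0.19, adjusted p = 0.223).

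Cebpb was lower in fusion basophils and mast cells, at 193, 190 and 281 CPM (log2 fold change -0.66 ± 0.20, edgeR adjusted p = 0.0136), where 6.49% of all genes were called lower. The class markers themselves were lower, with 9 of 10 under wild type in both fusion libraries (summed 26530, 31101 and 57696 CPM), and the largest cluster of the class gave -0.20 (adjusted p = 0.788), with 0 genes called and 806 at an unadjusted p under 0.05. The other cluster of the class (cluster 24), with little Cebpb (49.5, 62.8 and 38.1 CPM), held 79 of 202, 99 of 269 and 52 of 604 cells of the class. Its log2 fold change was 0.58 ± 0.39 (adjusted p = 0.848). A shift in make-up and less Cebpb per cell therefore cannot be told apart in the whole class. Cebpb in plasmacytoid dendritic cells was 34.7, 56.8 and 85.035 CPM and did not pass (adjusted p = 0.0927). The Cebpb effect differed between immature neutrophils and granulocyte-monocyte progenitors by 0.49 ± 0.12 (edgeR interaction, adjusted p = 0.00237), although neither class passed alone. Cebpd passed in none of the 10 classes where it was tested.

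**Figure D3:**
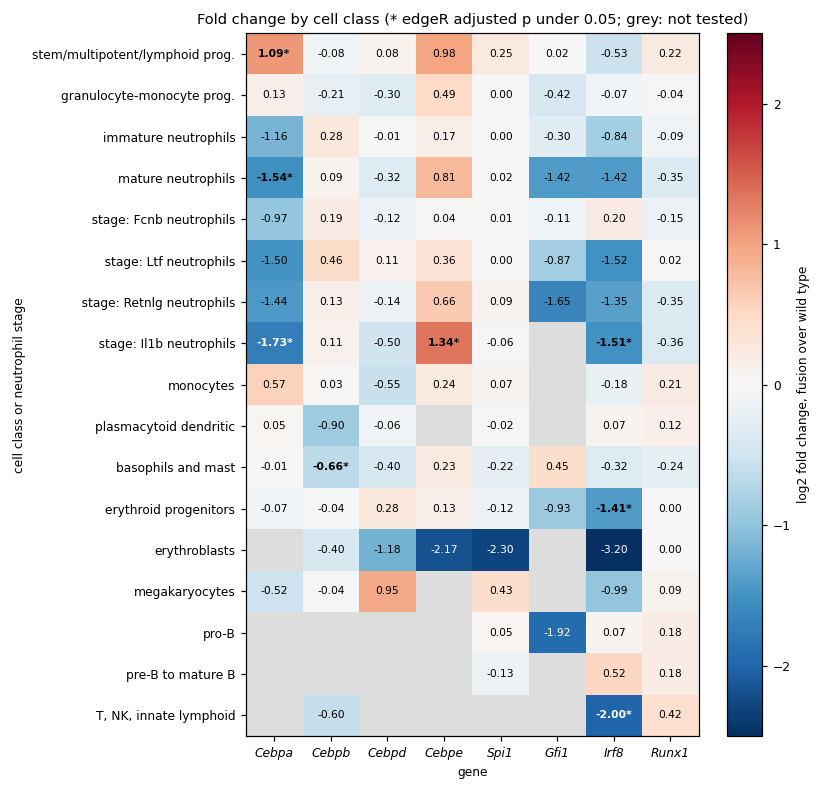
Log2 fold change of each factor, fusion over wild type, in each class and neutrophil stage, with an asterisk where the edgeR adjusted p was under 0.05 and grey where the low-count filter left the gene untested. The column of Spi1 is near 0 in the myeloid classes, and the asterisks lie in the columns of Cebpa, Cebpb, Cebpe and Irf8.

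Irf8 was lower in classes where it is scarce. T, NK and innate lymphoid cells held 37.0, 19.7 and 109 CPM (log2 fold change -2.0 ± 0.35, edgeR adjusted p = 4.3e-06), where 1.22% of all genes were called lower. Erythroid progenitors held 2.67, 1.85 and 5.90 CPM (-1.41 ± 0.26, adjusted p = 0.0228), where 0.981% were called lower. Il1b neutrophils held 18.1, 6.12 and 32.1 CPM (-1.51 ± 0.39, adjusted p = 0.0352), where 3.38% were called lower. Both fusion libraries lay under wild type in each.

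Markers of other cell types moved in both directions in erythroid progenitors. Both fusion libraries lay below wild type for 11 of 12 monocyte markers (summed 11.1, 9.93 and 25.3 CPM), 9 of 10 pro-B markers (6.32, 5.21 and 17.8 CPM) and 11 of 12 pre-B to mature B markers (61.2, 60.0 and 85.6 CPM). They lay above it for 6 of 10 megakaryocyte markers (47.9, 54.3 and 38.3 CPM), and the summed T, NK and innate lymphoid markers were also higher (73.1, 75.0 and 53.2 CPM). Immature neutrophil markers lay on either side of wild type (147, 92.4 and 125 CPM). In T, NK and innate lymphoid cells, 7 of 12 monocyte markers and 5 of 10 conventional dendritic cell markers were lower, the latter at a summed 78.6, 204 and 362 CPM. Over the whole libraries Irf8 was also lower (-1.13). The part of free RNA from other cells in these calls was not tested.

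Where Irf8 is abundant, no change passed. The log2 fold change was 0.07 ± 0.27 in plasmacytoid dendritic cells, -0.07 ± 0.17 in granulocyte-monocyte progenitors, -0.18 ± 0.22 in monocytes and 0.52 ± 0.27 in pre-B to mature B cells. Stem, multipotent and lymphoid progenitors, given above, held 403, 326 and 523 CPM and did not pass. On scaled library sizes both fusion libraries lay under wild type for Irf8 in 10 of 13 classes and above it in 3. Of the 13 IRF8-linked genes, 4 rose and 2 fell in fusion monocytes, beside 37 called higher and 82 lower of all 10136 genes tested. The risers were the class II antigen presentation genes H2-Aa (2.33 ± 0.27, edgeR adjusted p = 0.000585), Cd74, H2-Ab1 and their activator Ciita (2.82 ± 0.29, adjusted p = 0.000456). Those that fell were the protease gene Ctsc (-1.36 ± 0.22, adjusted p = 0.00771) and Klf4 (-1.07 ± 0.21, adjusted p = 0.0249). In the same cells the summed level of conventional dendritic cell markers was 3711, 2784 and 757 CPM (5 of 10 above wild type in both fusion libraries and 4 below), and that of pre-B to mature B markers was 1203, 1010 and 526 CPM (4 of 12 above and 5 below). The first of these lists holds H2-Aa, H2-Ab1 and Cd74 and the second H2-Aa, so the sums are not separate from the genes that rose. The part of other cell types in the class II result was not tested.

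Spi1, Gfi1 and Runx1 passed in no class. The log2 fold change of Spi1 was within 0.25 of 0 in each of the 7 myeloid and progenitor classes, for example 0.07 ± 0.23 in monocytes and 0.02 ± 0.20 in mature neutrophils. Of 16 PU.1 target genes, 1 rose in mature neutrophils and 0 fell, beside 149 higher of all 9885 genes tested. That gene was Csf1r, the macrophage growth factor receptor (1.17 ± 0.19, edgeR adjusted p = 0.0156), at 101, 117 and 48.2 CPM on scaled library sizes. In basophils and mast cells 1 of the 16 rose and 5 fell, beside 287 higher and 662 lower of all 10205 genes. In erythroblasts 3 of 11 tested fell and 0 rose, beside 48 lower of all 9150 genes. In monocytes and granulocyte-monocyte progenitors 0 of the 16 rose or fell. Gfi1 was 25.5, 25.6 and 33.2 CPM in granulocyte-monocyte progenitors (-0.42 ± 0.13, adjusted p = 0.408), 2.78, 1.52 and 5.29 CPM in mature neutrophils (-1.42 ± 0.46, adjusted p = 0.179) and 2.24, 5.60 and 16.4 CPM in pro-B cells (-1.92 ± 0.96, adjusted p = 0.738). Both fusion libraries lay under wild type in these 3 classes. Runx1 had no unadjusted p under 0.05 in any of the 13 classes.

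Over all cells, 5 of the 8 factors were called lower by edgeR, beside 11.3% of all genes called lower: Gfi1 (-1.16), Irf8 (-1.13), Cebpa (-0.84), Cebpb (-0.54) and Cebpd (-0.51). The make-up of the libraries moved with this. Granulocyte-monocyte progenitors were 8.42%, 10.9% and 17.1% of cells and erythroid progenitors 29.5%, 29.4% and 13.4%. Wild-type class levels were combined with the class shares of UMIs of each fusion library. This gave Irf8 at -1.13 and -0.93 against a measured -1.19 and -1.09. For Cebpe the shares gave -0.33 and -0.35, and the measured values were 0.24 and -0.07. Most of the all-cell fall in Irf8 was thus matched by class shares, while Cebpe lay above the value that the shares gave in both fusion libraries. Gfi1 lay below it in both, with -0.95 and -0.78 from the shares against a measured -1.21 and -1.13. For Cebpa, Cebpb and Cebpd, fusion replicate 1 lay above the value from the shares and fusion replicate 2 below it.

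**Figure D4:**
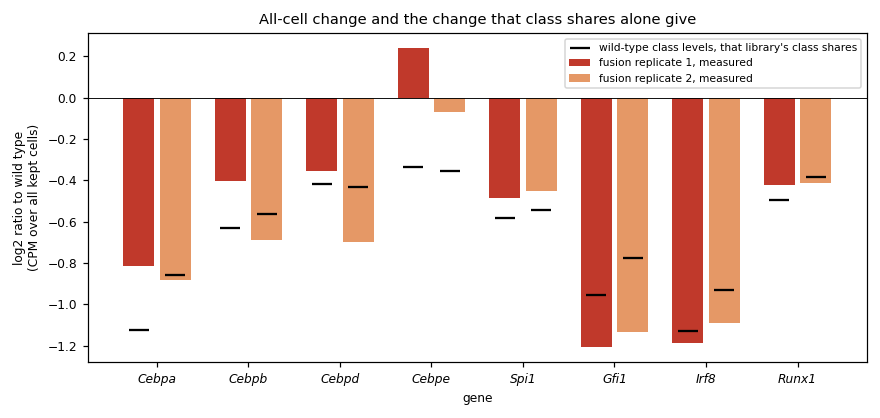
Log2 ratio to wild type of each factor over all kept cells (bars, one per fusion library) and the ratio given by wild-type class levels with that library's class shares (black marks). For Irf8 the marks lie at -1.13 and -0.93 beside bars of -1.19 and -1.09. For Cebpe the bars lie above the marks, and for Gfi1 they lie below them.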

How the data were processed

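The deposited files hold raw UMI counts per gene and barcode, which the authors made on the GRCm38 build with Cell Ranger 5.0.1 after bcl2fastq 2.20.0.422, per the submitters' processing notes (5.0.0 per the file headers). Barcodes needed 1000 UMIs, 400 genes and a mitochondrial share of no more than 10%. Predicted doublets (225, 318 and 194 in fusion replicate 1, fusion replicate 2 and wild type) were removed with scrublet in scanpy 1.11.5. Cells of the 3 libraries were clustered together (2000 variable genes without the 8 factors, 30 components, 15 neighbours, Leiden resolution 1, leidenalg 0.10.2), giving 28 clusters, and named from marker lists. Clusters 26 and 27 stayed unnamed. The first clustering split neutrophils by genotype, so, after seeing this, neutrophil classes and stages were taken from a second clustering that also left out 2173 genes called between genotypes. The stem and lymphoid progenitor classes were joined because 1 cluster held markers of both.

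Summed counts were tested with edgeR 4.0.16 (TMM, filterByExpr, quasi-likelihood, adjusted p under 0.05) and, as an alternative, DESeq2 1.42.0. CPM in the text is on plain class totals unless called scaled. The edgeR script was checked on simulated data. Intervals and limits for zero counts (3 counts) cover counting error only. All 8 factors are described in every class; from each target list, called genes with the largest changes are named. The members and lists were chosen with earlier results of these data known, so no count over them is independent evidence. The gene nearest in pattern to Spi1 is not reported here.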

Additional observations from a re-analysis of the deposited data

Results flagged for a closer look

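In 4 cases the genotype effect on a factor differed between 2 cell classes by the edgeR interaction test. Between immature neutrophils and granulocyte-monocyte progenitors the difference on the log2 scale was 0.49 ± 0.12 for Cebpb (adjusted p = 0.00237), -1.30 ± 0.35 for Cebpa (adjusted p = 0.00724) and -0.32 ± 0.096 for Cebpe (adjusted p = 0.0257; 0.107 without the low-count filter). Between mature and immature neutrophils it was 0.64 ± 0.13 for Cebpe (adjusted p = 0.00784). Cebpa in immature neutrophils rested on 22, 19 and 41 UMIs. No group held 4 or more libraries, so single libraries could not be checked for standing apart.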

How the results depend on the processing

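Among the single factor-by-class values and their alternatives, 1018 kept direction and side of the threshold, 39 were newly called, 21 were no longer called, 20 single-library values moved by more than 1 standard error and 100 changed sign. No value called as reported changed sign. Leaving out each fusion library in turn gave values without a test: for the called pairs 16 of 16 kept their sign (-2.47 to 1.54), and over all tested pairs 195 of 228 did (-3.91 to 1.54). The called pairs here include those of Il1b neutrophils (1 higher and 2 lower). Each value sets 1 fusion library against the same wild-type library. A called pair will nearly always have both fusion libraries on the same side, so the 16 of 16 is no separate check.

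In the analysis as reported, 1 pair was called higher and 4 lower, and genes called were 270 in stem and lymphoid progenitors, 54 in granulocyte-monocyte progenitors, 439 in immature neutrophils, 366 in mature neutrophils, 119 in monocytes, 60 in plasmacytoid dendritic cells, 949 in basophils and mast cells. With DESeq2 size factors in edgeR, 2 pairs were called higher, 574 genes in mature neutrophils, 48 genes in monocytes, 39 genes differed between mature and immature neutrophils (146 as reported). Without the low-count filter, 2 pairs were called higher, 9 pairs were called lower, 505 genes in stem and lymphoid progenitors, 405 genes in granulocyte-monocyte progenitors, 818 genes in mature neutrophils, 307 genes in monocytes. With DESeq2, 0 pairs were called higher, 0 pairs were called lower, 31 genes in stem and lymphoid progenitors, 56 genes in immature neutrophils, 223 genes in mature neutrophils, 33 genes in monocytes, 6 genes in plasmacytoid dendritic cells, 49 genes in basophils and mast cells. With equal cells per library, 2 pairs were called higher, 171 genes in immature neutrophils, 23 genes in plasmacytoid dendritic cells, 631 genes in basophils and mast cells. With predicted doublets kept, 2 pairs were called higher, 102 genes in granulocyte-monocyte progenitors, 668 genes in mature neutrophils, 259 genes in monocytes, 5 genes in plasmacytoid dendritic cells. With all classes clustered without the genes called between genotypes, 0 pairs were called higher, 194 genes in immature neutrophils, 209 genes in monocytes, 25 genes in plasmacytoid dendritic cells, 369 genes in basophils and mast cells. In the largest cluster of each class, 2 pairs were called higher, 263 genes in immature neutrophils, 195 genes in monocytes, 0 genes in basophils and mast cells. With neutrophils as first clustered, an alternative chosen after seeing the data, 2 pairs were called higher, 7 pairs were called lower, 704 genes in immature neutrophils, 607 genes in mature neutrophils. At Leiden resolution 2, 10 pairs were called lower, 660 genes in stem and lymphoid progenitors, 19 genes in granulocyte-monocyte progenitors, 616 genes in mature neutrophils, 13 genes in plasmacytoid dendritic cells. At Leiden resolution 0.5, 0 genes in granulocyte-monocyte progenitors, 289 genes in immature neutrophils, 192 genes in monocytes, 18 genes in plasmacytoid dendritic cells. With classes from a per-cell marker score, 799 genes in mature neutrophils, 567 genes in basophils and mast cells. With predicted doublets kept, at Leiden resolutions 2 and 0.5 and with the marker score, neutrophils were not taken from the second clustering, so for neutrophils 2 choices changed together and these counts compare with the 704 and 607 genes of the first clustering. As a mean of per-cell CPM, Cebpa in its top class was 361.1 CPM, Cebpb in its top class was 639.2 CPM, Spi1 in its top class was 764.7 CPM, Irf8 in its top class was 3199.4 CPM, Runx1 in its top class was 699.8 CPM. The top class of each factor was the same on that scale.

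Sign changes were in pairs not called as reported; 1 of them was called under the alternative, Cebpd in stem and lymphoid progenitors at Leiden resolution 2 (adjusted p = 0.0142). In the largest cluster of each class the values were 0.0096 for Spi1 in basophils and mast cells, 0.37 for Cebpa in basophils and mast cells, 0.0034 for Cebpd in basophils and mast cells, 0.017 for Runx1 in erythroid progenitors, 0.0075 for Spi1 in granulocyte-monocyte progenitors, -0.0014 for Spi1 in immature neutrophils, 0.11 for Cebpd in immature neutrophils, 0.023 for Runx1 in immature neutrophils, -0.058 for Spi1 in mature neutrophils, -0.064 for Cebpb in monocytes. With equal cells per library the values were -0.14 for Gfi1 in basophils and mast cells, 0.047 for Runx1 in erythroblasts, 0.011 for Runx1 in erythroid progenitors, 0.0059 for Spi1 in granulocyte-monocyte progenitors, -0.0027 for Spi1 in immature neutrophils, 0.24 for Cebpb in megakaryocytes, -0.043 for Cebpa in plasmacytoid dendritic cells, -0.022 for Runx1 in plasmacytoid dendritic cells, -0.15 for Spi1 in pro-B cells, -0.0073 for Runx1 in pro-B cells, -0.023 for Gfi1 in stem and lymphoid progenitors, -0.057 for Cebpd in stem and lymphoid progenitors. At Leiden resolution 0.5 the values were 0.0046 for Cebpa in basophils and mast cells, 0.048 for Irf8 in granulocyte-monocyte progenitors, 0.061 for Cebpd in immature neutrophils, -0.0022 for Spi1 in mature neutrophils. With all classes clustered without the genes called between genotypes the values were 0.12 for Cebpa in basophils and mast cells, -0.11 for Cebpe in basophils and mast cells, -0.45 for Cebpe in erythroid progenitors, 0.029 for Runx1 in erythroid progenitors, 0.066 for Cebpd in immature neutrophils, 0.25 for Spi1 in plasmacytoid dendritic cells, -0.26 for Spi1 in stem and lymphoid progenitors, -0.81 for Gfi1 in stem and lymphoid progenitors, -0.018 for Cebpe in stem and lymphoid progenitors, -0.023 for Runx1 in stem and lymphoid progenitors. With classes from a per-cell marker score the values were 0.17 for Cebpa in basophils and mast cells, 0.043 for Runx1 in erythroid progenitors, 0.038 for Runx1 in granulocyte-monocyte progenitors, -0.0020 for Spi1 in mature neutrophils, 0.68 for Spi1 in plasmacytoid dendritic cells, -0.11 for Spi1 in pro-B cells, -0.16 for Irf8 in pro-B cells, -0.031 for Spi1 in stem and lymphoid progenitors, -0.71 for Gfi1 in stem and lymphoid progenitors, -0.040 for Cebpe in stem and lymphoid progenitors, -0.36 for Cebpd in stem and lymphoid progenitors. With predicted doublets kept the values were 0.48 for Irf8 in basophils and mast cells, -0.011 for Spi1 in mature neutrophils, 0.20 for Cebpb in megakaryocytes, -0.038 for Cebpb in monocytes, -0.10 for Cebpa in plasmacytoid dendritic cells, -0.0021 for Irf8 in pro-B cells. Without the low-count filter the values were 0.026 for Runx1 in erythroblasts, 0.011 for Runx1 in erythroid progenitors, 0.014 for Spi1 in Ltf neutrophils. At Leiden resolution 2 the values were 0.024 for Runx1 in erythroid progenitors, 0.021 for Spi1 in granulocyte-monocyte progenitors, -0.0065 for Spi1 in mature neutrophils, 0.038 for Spi1 in plasmacytoid dendritic cells, -0.074 for Runx1 in plasmacytoid dendritic cells, -0.27 for Spi1 in stem and lymphoid progenitors, -0.40 for Gfi1 in stem and lymphoid progenitors, -0.64 for Cebpd in stem and lymphoid progenitors. With DESeq2 size factors in edgeR the values were -0.0029 for Spi1 in immature neutrophils. With DESeq2 the values were -0.0029 for Spi1 in immature neutrophils. With neutrophils as first clustered the values were -8.7e-05 for Spi1 in mature neutrophils.

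With each fusion library left out, the pairs that changed sign ranged as follows: Cebpa in basophils and mast cells -0.086 to 0.063, Cebpe in basophils and mast cells -0.025 to 0.40, Runx1 in erythroblasts -0.010 to 0.0090, Cebpb in erythroid progenitors -0.10 to 0.014, Cebpa in erythroid progenitors -0.19 to 0.033, Cebpe in erythroid progenitors -0.14 to 0.36, Runx1 in erythroid progenitors -0.062 to 0.053, Spi1 in granulocyte-monocyte progenitors -0.052 to 0.044, Cebpa in granulocyte-monocyte progenitors -0.035 to 0.28, Runx1 in granulocyte-monocyte progenitors -0.12 to 0.029, Spi1 in immature neutrophils -0.073 to 0.072, Cebpd in immature neutrophils -0.12 to 0.083, Spi1 in mature neutrophils -0.14 to 0.16, Cebpb in mature neutrophils -0.078 to 0.23, Cebpb in megakaryocytes -0.29 to 0.13, Cebpd in megakaryocytes -0.080 to 1.44, Spi1 in monocytes -0.024 to 0.16, Cebpb in monocytes -0.059 to 0.12, Cebpe in monocytes -0.056 to 0.51, Spi1 in plasmacytoid dendritic cells -0.10 to 0.063, Cebpa in plasmacytoid dendritic cells -0.044 to 0.14, Spi1 in pre-B to mature B cells -0.55 to 0.17, Spi1 in pro-B cells -0.077 to 0.13, Runx1 in pro-B cells -0.0091 to 0.37, Gfi1 in stem and lymphoid progenitors -0.26 to 0.28, Spi1 in Fcnb neutrophils -0.052 to 0.084, Gfi1 in Fcnb neutrophils -0.23 to 0.025, Irf8 in Fcnb neutrophils -0.057 to 0.46, Spi1 in Il1b neutrophils -0.30 to 0.15, Cebpb in Il1b neutrophils -0.058 to 0.26, Spi1 in Ltf neutrophils -0.068 to 0.062, Runx1 in Ltf neutrophils -0.15 to 0.17, Spi1 in Retnlg neutrophils -0.0047 to 0.18.

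No paired analysis was possible because the fusion and wild-type groups share 1 replicate number and the wild-type group has 1 library. The Cebpa call in mature neutrophils held under every edgeR alternative run and was lost with DESeq2 (adjusted p = 0.193). The alternative clustered without called genes held nearly the same mature neutrophils (2179, 1663 and 1676 cells against 2179, 1662 and 1676), so it was no separate check. All alternatives rest on the same wild-type library. The Cebpa call in stem and lymphoid progenitors could not be tried at Leiden resolution 0.5, where no such class formed, and was lost at Leiden resolution 2 (0.26, adjusted p = 0.457), with a per-cell marker score (0.59, adjusted p = 0.177), without called genes (0.22, adjusted p = 0.84) and with DESeq2 (adjusted p = 0.557). The Cebpe interaction between neutrophil classes was lost with DESeq2 size factors. Depth limits the low genes: Gfi1 reached at most 33.2 CPM in any class and library.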
